A study of Homo sapiens with 4 samples.

Results

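Metallothioneins and their zinc-response partners were followed in 4 RNA-seq libraries of MDA-MB-231, an established line of human breast cancer cells of the triple-negative class, which is defined by the absence of estrogen and progesterone receptors and of HER2 overexpression. The 8 genes are the metallothioneins MT2A, MT1E, MT1X, MT1F, MT1G and MT1M, the zinc-sensing transcription factor MTF1 and the zinc exporter SLC30A1. They were chosen by name out of 58735 genes in the deposited count table, and each matched exactly 1 row. All 4 groups carried a transduced TetOn-H2BeGFP reporter, a green histone that doxycycline switches on, and all were treated with doxycycline at 5 μg/ml for 3 days, labelled with Claret and Violet dyes and left for a chase of 12 days. The Claret, eGFP and Violet groups are the cells in the top 1% for retention of that label, sorted as slow-cycling cells, since label is diluted when a cell divides. Bulk cells were sorted with no gate on fluorescence. Each group holds 1 library, so no difference has a replicate check, and the labels do not say from how many cultures the cells came.

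Groups follow the sample titles, which match the column names of the deposited counts. The treatment field names another sort in every sample, and calls the library titled Bulk Claret, the one titled Claret eGFP, the one titled H2B-eGFP Violet and the one titled Violet un-gated. Summed read counts were 15508179 to 16976909 per library. Of the MDA-MB-231 markers VIM, CD44, AXL and CAV1, each had 236 to 1090 CPM (reads per 1000000 reads of the library) in every library. Levels in CPM are given after scaling of library sizes by TMM (edgeR's trimmed mean of M-values). VIM was at 794 CPM in Bulk and 1007 to 1090 in the others, and CAV1 at 456 and 236 to 267. CD44 was at 372 and 336 to 401, and AXL at 741 and 622 to 764. Of 5 markers listed as low in this line, PGR had 0 reads, CDH1 0 to 3 and ESR1 3 to 7, but EPCAM had 28 to 61 reads and ERBB2, the HER2 gene, 1415 to 1542 reads (89.6 to 92.2 CPM). Of 8 markers of leukocytes, fibroblasts and endothelium, CD3E had 0 reads in all 4 libraries, and the 8 together summed to 34.8 CPM in Bulk and 52.8 to 55.2 CPM in the slow-cycling libraries. Most of that sum was PDGFRB (201 reads in Bulk and 421 to 431 in the others) and COL1A1 (284 and 332 to 363). Of the endothelial markers, VWF was at 4 and 19 to 24 reads. PECAM1 was at 57 (Bulk), 81 (Claret), 54 (eGFP) and 87 (Violet) reads. The part of these markers in the results was not tested.

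Metallothioneins are small, cysteine-rich proteins that bind zinc, copper and cadmium and also react with oxidants. Zinc entering the cell activates MTF1, which binds metal response elements in the promoters of the metallothionein genes and of SLC30A1, so that zinc is both bound in the cytosol and exported over the plasma membrane. Glucocorticoids, oxidative stress and AP-1, the FOS and JUN factor named in the title of the series, are also known to act on MT2A.

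Promoter sequence was found in the RefSeq table (GRCh38.p14) for 4 of the 8 genes, MT2A, MT1X, MTF1 and SLC30A1, and not for MT1E, MT1F, MT1G and MT1M. The 250 bases before the RefSeq start are shown for MT2A and MT1X, the most and least abundant of the 3 well-read metallothioneins, and for SLC30A1, the other classical MTF1 target, because the metallothioneins lay above Bulk and SLC30A1 below it. Capitals mark the core of the metal response element (TGCACNC or TGCGCNC, either strand) and the AP-1 site (TGACTCA, either strand), and each sequence runs 5′ to 3′ in the direction of transcription.
MT2A, chr16:56608334-56608583, plus strand: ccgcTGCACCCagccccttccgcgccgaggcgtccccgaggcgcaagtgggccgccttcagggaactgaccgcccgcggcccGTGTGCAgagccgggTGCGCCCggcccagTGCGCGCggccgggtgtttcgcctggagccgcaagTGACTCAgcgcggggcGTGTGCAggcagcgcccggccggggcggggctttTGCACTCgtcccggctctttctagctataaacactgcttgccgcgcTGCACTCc
MT1X, chr16:56682220-56682469, plus strand: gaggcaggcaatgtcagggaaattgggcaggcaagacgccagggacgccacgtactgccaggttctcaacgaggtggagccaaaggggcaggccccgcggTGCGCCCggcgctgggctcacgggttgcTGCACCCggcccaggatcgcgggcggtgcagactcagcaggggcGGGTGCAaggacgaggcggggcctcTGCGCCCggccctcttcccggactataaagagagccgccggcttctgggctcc
SLC30A1, chr1:211579162-211579411, minus strand: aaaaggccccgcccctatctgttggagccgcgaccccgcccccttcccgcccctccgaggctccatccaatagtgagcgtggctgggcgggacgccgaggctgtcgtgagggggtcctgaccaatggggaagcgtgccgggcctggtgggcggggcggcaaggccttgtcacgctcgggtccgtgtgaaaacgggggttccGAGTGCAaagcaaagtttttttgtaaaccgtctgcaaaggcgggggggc

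The MT2A window held 7 metal response cores and 1 AP-1 site. The AP-1 site lay 104 to 98 bases before the start, and no motif overlapped another. MT1X held 4 cores and no AP-1 site. SLC30A1 held 1 core, 49 to 43 bases before the start, and MTF1 held 0 of either motif. The RefSeq starts are not the ends of the counted genes. The SLC30A1 window, from 211579162, lies beyond its counted gene, which begins at 211578742 on the minus strand. The MT2A window lies inside its counted gene. Cores were not counted from other starts. A link between the number of cores and the ratios to Bulk was not tested. Of 35116 promoter windows of the same length, 24.8% held at least 1 core, 1.58% at least 3 and 0.12% at least 5, and 4.20% held an AP-1 site. Among the neighbouring metallothioneins outside the 8 genes, MT1H held 8 cores and had 1 read in the 4 libraries together. MT1B held 3 cores and 1 AP-1 site and had 0 reads in every library.

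MT2A (ENSG00000125148, chromosome 16, 56608199 to 56609497, GRCh38) is the major human metallothionein in most tissues, and it was the most abundant of the 8 genes here. Its read counts were 5907 (Bulk), 12384 (Claret), 11659 (eGFP) and 11206 (Violet), which is 375 CPM in Bulk and 730, 735 and 709 CPM elsewhere after scaling of library sizes by TMM (edgeR's trimmed mean of M-values). The 3 slow-cycling libraries lay close together and Bulk lay below all of them. Per length, MT2A had 293 FPKM (fragments per kilobase of gene, scaled to library depth) in Bulk and 537 to 562 FPKM in the others, and it ranked 87th of all genes in Bulk and 46th to 49th in the others. Its log2 ratio to Bulk was 0.96 in Claret (95% interval 0.92 to 1.01), 0.97 in eGFP (0.93 to 1.02) and 0.92 in Violet (0.87 to 0.97). That is a level 1.95, 1.96 and 1.89 times that of Bulk, and 87.9%, 87.5% and 86.8% of the 14585 genes kept for testing had a lower log2 ratio.

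**Figure D1:**
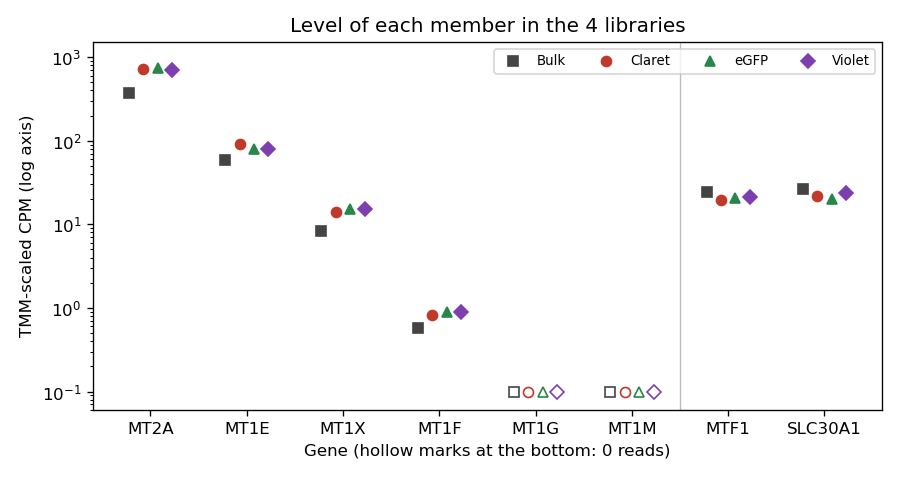
TMM-scaled CPM on a log axis for each of the 8 genes, 1 mark per library, with hollow marks at the bottom for 0 reads. MT2A sits at 375 CPM in Bulk and 709 to 735 CPM in the slow-cycling libraries, while MTF1 and SLC30A1 sit at 19.5 to 26.6 CPM with Bulk highest.

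MT1E (ENSG00000169715, chromosome 16, 56625475 to 56627112) is one of the several human MT1 copies and was the next most abundant. Its read counts were 927 (Bulk), 1532 (Claret), 1253 (eGFP) and 1264 (Violet). Bulk was lowest and Claret highest. Its log2 ratio to Bulk was 0.62 in Claret (0.50 to 0.74), 0.42 in eGFP (0.30 to 0.55) and 0.44 in Violet (0.32 to 0.57). In each library this interval lay wholly below that of MT2A.

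MT1X (ENSG00000187193, chromosome 16, 56682424 to 56684196) is the copy at the far end of the cluster. Its read counts were 132 (Bulk), 238 (Claret), 239 (eGFP) and 241 (Violet). The 3 slow-cycling libraries were nearly equal, and Bulk was lower. The log2 ratio to Bulk was 0.74 in Claret (0.43 to 1.06), 0.84 in eGFP (0.53 to 1.16) and 0.86 in Violet (0.55 to 1.18), intervals that overlap those of both MT2A and MT1E in each library.

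MT1F (ENSG00000198417, chromosome 16, 56657694 to 56660698) had 9 reads in Bulk and 14 in each slow-cycling library. Its level was 1.45 times that of Bulk in Claret, with a 95% interval from 0.58 to 3.79, so a difference was not detectable at this depth. MT1G (ENSG00000125144, chromosome 16, 56666731 to 56668065, the 1 member of the cluster on the minus strand) and MT1M (ENSG00000205364, chromosome 16, 56632233 to 56633986) had 0 reads in every library, which allows up to 0.177 to 0.190 CPM (3 reads). These 3 genes did not reach the mean of 1 CPM required for testing, so 5 of the 8 genes were tested.

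The metal-sensing and export genes lay on the other side of Bulk. MTF1 (ENSG00000188786, chromosome 1, 37809567 to 37859620) was read 384 (Bulk), 331 (Claret), 325 (eGFP) and 331 (Violet) times, highest in Bulk. Its log2 ratio was -0.32 in Claret (-0.54 to -0.10), -0.25 in eGFP (-0.47 to -0.03) and -0.22 in Violet (-0.43 to -0.0021). In that order, 30.3%, 35.3% and 36.5% of the genes kept had a lower log2 ratio. By the exact binomial test on reads, adjusted over all genes, the adjusted p was 0.0058, 0.0337 and 0.0675 in the same order. A pseudogene on the other strand, AL929472.4, overlaps MTF1 and had 0 to 2 reads. Use of strand in counting is not given in the sources used here.

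SLC30A1 (ENSG00000170385, chromosome 1, 211571568 to 211578742), also called ZnT1, is the exporter at the cell surface. Reads numbered 419 (Bulk), 366 (Claret), 322 (eGFP) and 375 (Violet). Bulk was again highest. The log2 ratio was -0.30 in Claret (-0.51 to -0.10; exact binomial test, adjusted p = 0.00657), -0.39 in eGFP (-0.60 to -0.18; adjusted p = 0.000536) and -0.16 in Violet (-0.37 to 0.04; adjusted p = 0.155). In the same order, 31.4%, 27.4% and 39.7% of the genes kept had a lower log2 ratio. As a ratio of reads within a library, MT2A to SLC30A1 stood at 14.1 in Bulk and at 33.8, 36.2 and 29.9 in Claret, eGFP and Violet.

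**Figure D2:**
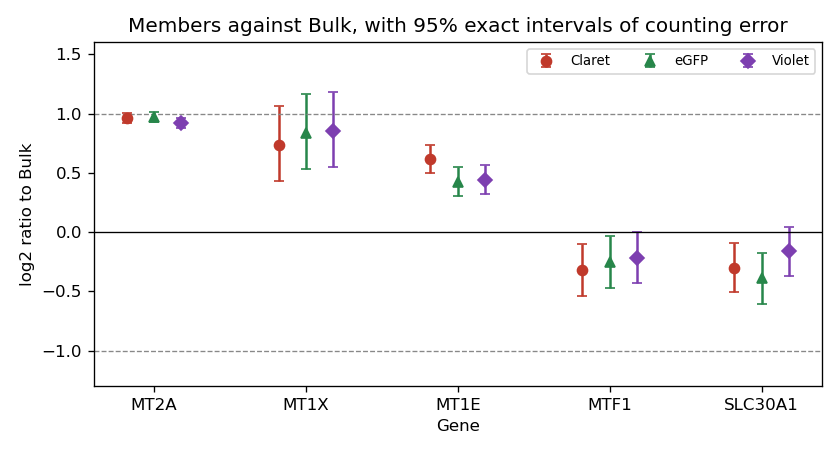
Log2 ratio to Bulk for the 5 genes tested, with 95% exact intervals of counting error and dashed lines at the 2-fold threshold. The metallothioneins lie between 0.42 and 0.97 and MTF1 and SLC30A1 between -0.39 and -0.16.

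Calls required a level at least 2-fold apart together with an adjusted p under 0.05 in the exact binomial test. By that rule 0 of the 5 genes tested were called higher and 0 lower in any slow-cycling library, against 11.2%, 11.9% and 11.3% of all genes kept called higher and 6.67%, 7.6% and 7.01% called lower in Claret, eGFP and Violet. At an adjusted p under 0.05 with no demand on the fold, 3 genes were higher in each library (MT2A, MT1E and MT1X), against 33.2%, 33.7% and 33.7% of all genes, and MTF1 and SLC30A1 were lower in Claret and eGFP, 2 genes each, and 0 in Violet, against 35.1%, 35.8% and 35.2%. At an unadjusted p under 0.05 in that test, 5, 5 and 4 genes passed in the same order, as did 10251, 10406 and 10358 of the 14585 genes kept. With the call set at 1.5-fold, 3 genes were called higher in Claret (MT2A, MT1X and MT1E, against 19.7% of all genes) and 2 in eGFP and in Violet (MT2A and MT1X, against 20.4% and 20.3%), and 0 were called lower, against 16.5%, 17.7% and 16.8%. The median log2 ratio of the 3 metallothioneins tested was 0.74 (Claret), 0.84 (eGFP) and 0.86 (Violet), and that of all genes kept was -0.01, -0.01 and 0.00. All 3 comparisons share the Bulk library, so a peculiarity of that library would appear in each. These are bulk RNA samples, in which more cells with a transcript and more transcript per cell cannot be told apart. The test compares the reads of 2 libraries, not the conditions. With the groups of the treatment field, the Claret values change sign, with MT2A at -0.92 and MTF1 at 0.22. MT2A was then at 0.0417 in eGFP and 0.0502 in Violet. The higher level of MT2A against the control in all 3 sorted groups thus rests on the titles and the column names that match them.

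Because metallothionein copies share sequence, reads can be given to the wrong copy, and the split between copies is uncertain where they do. Of the 31-base words in the annotated transcripts, 7.25% of those of MT2A also occurred in another gene, 15.6% of MT1E, 19.8% of MT1X, 3.25% of MT1F, 23.3% of MT1G and 24.1% of MT1M. At 100 bases the share was 0% for MT2A, MT1E, MT1F, MT1G and MT1M. For MT1X it was 11.3%, and AC026461.1 ranked first among the genes that share these words. That transcript overlaps MT1X on the same strand and had 0 reads. A sum over the copies does not depend on the split, but it lacks any reads left uncounted for matching several genes, and how these were handled is not given in the sources used here. Summed over the 6 metallothioneins, reads numbered 6975 (Bulk), 14168 (Claret), 13165 (eGFP) and 12725 (Violet). The log2 ratio of this sum was 0.92 in Claret (0.87 to 0.96), 0.91 in eGFP (0.86 to 0.95) and 0.86 in Violet (0.82 to 0.91). Over all 21 metallothionein genes and pseudogenes in the table it was 0.91, 0.90 and 0.86. Most of the sum is MT2A, and without MT2A it was 0.63, 0.49 and 0.50.

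The 21 rows were read very unequally. On chromosome 16 the cluster runs from MT4 to MT1X, and MT2A, MT1E, MT1X and MT1A were its 4 best-read copies. MT1A, 30.5 kb from MT2A, was read 43 times in Bulk and 48 to 55 times elsewhere, with log2 ratios of 0.24, 0.14 and 0.26 and intervals that include 0. MT1F was next, and MT1JP, a pseudogene, had 4 or 5 reads in each library. MT1DP, another pseudogene, was read 3 (Bulk), 2 (Claret), 12 (eGFP) and 0 (Violet) times, highest in eGFP. It was below the level required for testing, and its ratio in eGFP was 3.97 times Bulk with an interval from 1.07 to 21.9. In all, 8 of the 21 rows had 0 reads in every library. MT3, a copy known from brain, and MT4, known from stratified epithelium, had at most 1 read.

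**Figure D3:**
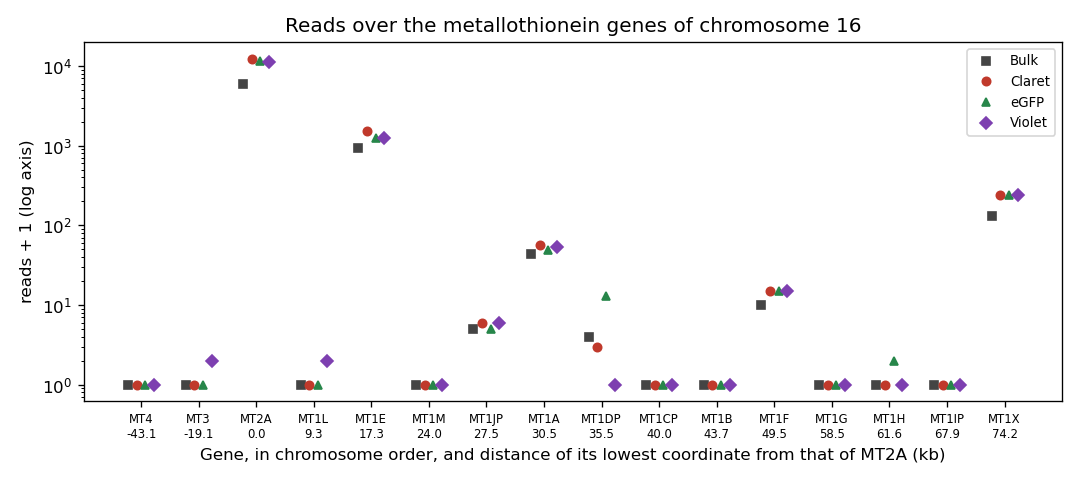
Reads plus 1 on a log axis for the 16 metallothionein genes and pseudogenes of chromosome 16 in chromosome order, with the distance in kb from MT2A under each name. Reads are concentrated in MT2A, MT1E and MT1X, and copies with 0 reads such as MT1M and MT1G lie between read ones.

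The make-up of the reads on the 21 rows differed between Bulk and the slow-cycling libraries. MT2A held 84.0% of them in Bulk (exact 95% binomial interval 83.1% to 84.9%), 87.0% in Claret (86.4% to 87.5%), 88.1% in eGFP (87.5% to 88.6%) and 87.6% in Violet (87.1% to 88.2%). The Bulk interval lies below the other 3. MT1E held 13.2% in Bulk (12.4% to 14.0%) and 10.8%, 9.47% and 9.89% in Claret, eGFP and Violet. MT1X held 1.88% in Bulk (1.57% to 2.22%) and 1.67% to 1.88% in the others, intervals that overlap. Per length, MT2A stood at 5.16 times the FPKM of MT1E in Bulk and at 6.55, 7.54 and 7.18 times in Claret, eGFP and Violet.

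**Figure D4:**
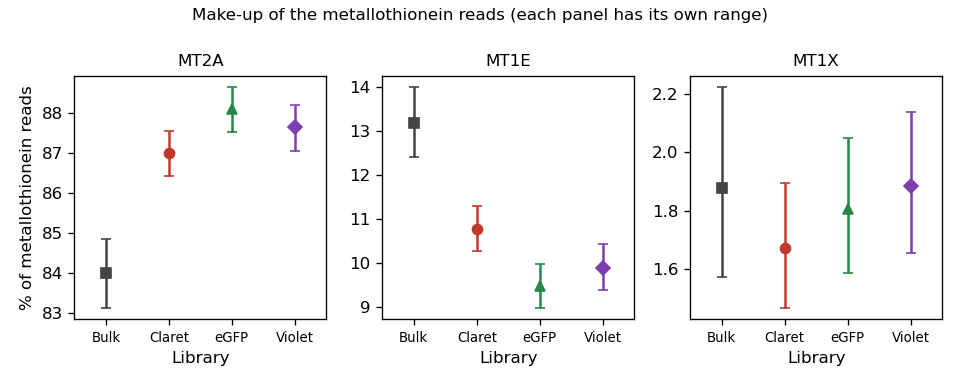
Percent of all metallothionein reads that fell on MT2A, MT1E and MT1X in each library, with exact 95% binomial intervals and a separate axis range per panel. MT2A holds 84.0% in Bulk and 87.0% to 88.1% elsewhere, and MT1E holds 13.2% in Bulk and 9.47% to 10.8% elsewhere.

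The 3 slow-cycling libraries were also compared with each other. Of the 5 genes tested, 0 were called between Claret and eGFP, Claret and Violet or eGFP and Violet, where 0.713%, 0.788% and 0.932% of all genes were called. At an adjusted p under 0.05 with no demand on the fold, MT1E alone passed, in both comparisons that involve Claret, against 12.3%, 17.2% and 16.9% of all genes in the same order of comparisons. MT2A differed by a log2 ratio of -0.01 for Claret against eGFP (-0.05 to 0.03), 0.04 for Claret against Violet (0.00 to 0.08) and 0.05 for eGFP against Violet (0.01 to 0.09). MT1E was higher in Claret than in eGFP by 0.19 (0.09 to 0.30; exact binomial test, adjusted p = 0.00659) and than in Violet by 0.17 (0.07 to 0.28; adjusted p = 0.0134). For MT1X the 3 intervals, which together run from -0.39 to 0.25, include 0. MTF1 differed by -0.10 to -0.03 between slow-cycling libraries, with intervals that include 0. SLC30A1 was at -0.23 for eGFP against Violet (-0.45 to -0.01; exact binomial test, adjusted p = 0.156).

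The other zinc transporters were compared because zinc reaches metallothioneins through them. Most SLC30A proteins move zinc out of the cytosol, to the outside or into organelles, though not every listed member need do so. Of the 9 besides SLC30A1, 6 were tested and 0 were called in any comparison with Bulk. The share of all genes called was 11.2%, 11.9% and 11.3% higher and 6.67%, 7.6% and 7.01% lower in Claret, eGFP and Violet. The median log2 ratio of the 6 SLC30A genes tested was 0.02 (Claret), 0.17 (eGFP) and -0.08 (Violet). SLC30A7, which loads zinc into the secretory pathway, was the best-read of them per length, with 1461 reads in Bulk and 1608 to 1734 in the others and log2 ratios of 0.14, 0.20 and 0.13. SLC30A9 was next, with log2 ratios of -0.28 to -0.09.

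SLC39A proteins move zinc into the cytosol. Of the 14, 10 were tested and 0 were called, with medians of -0.08, -0.09 and -0.02. Among all genes kept, 11.2%, 11.9% and 11.3% were called higher and 6.67%, 7.6% and 7.01% lower in Claret, eGFP and Violet. Reads of SLC39A7, which releases zinc from the endoplasmic reticulum, numbered 3509 (Bulk), 4075 (Claret), 4547 (eGFP) and 3651 (Violet), at log2 ratios of 0.11, 0.36 and 0.05. It was higher in eGFP than in Violet by 0.31 (0.25 to 0.37). SLC39A13, the second by level per length, was at 0.15 to 0.23. SLC39A8, an importer of zinc and manganese picked after its values were seen, had 699 (Bulk), 381 (Claret), 367 (eGFP) and 428 (Violet) reads. It was not called at log2 ratios of -0.98, -0.94 and -0.71. SLC39A3 was at -0.72, -0.71 and -0.69 and SLC39A4 at -0.36, -0.49 and -0.63. Both were also picked after their values were seen, and neither was called. Of the 10 importers tested, 4, 3 and 5 lay above 0 and 6, 7 and 5 below it in Claret, eGFP and Violet.

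Copper-handling genes were compared because metallothioneins also bind copper. Of 9 genes, 7 were tested and 0 were called higher, against 11.2%, 11.9% and 11.3% of all genes in Claret, eGFP and Violet. Called lower were 0, 0 and 1 in the same order, against 6.67%, 7.6% and 7.01%. The gene called in Violet was COX17, the copper chaperone of cytochrome oxidase. Its reads numbered 408 (Bulk), 243 (Claret), 212 (eGFP) and 178 (Violet). Its log2 ratio was -0.85 and -0.95 in Claret and eGFP, not called, and -1.19 in Violet (-1.46 to -0.94). SOD1, the cytosolic copper and zinc superoxide dismutase, had log2 ratios of -0.68, -0.65 and -0.70, and SLC31A1, the copper importer, 0.31, 0.38 and 0.28, none called. The list medians were 0.02, 0.22 and 0.25.

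Glucocorticoid-responsive genes formed the list with the most calls. Of 9 genes, 8 were tested, and 2 were called higher in each slow-cycling library and 0 lower. Of all genes kept, 11.2%, 11.9% and 11.3% were called higher and 6.67%, 7.6% and 7.01% lower in Claret, eGFP and Violet. KLF9, a Krüppel-like factor, was read 86 (Bulk), 397 (Claret), 414 (eGFP) and 419 (Violet) times, with log2 ratios of 2.08 (1.76 to 2.45), 2.23 (1.92 to 2.61) and 2.26 (1.94 to 2.63). TSC22D3, known as GILZ, was read 225 (Bulk), 776 (Claret), 688 (eGFP) and 669 (Violet) times, with log2 ratios of 1.67, 1.59 and 1.56. The other genes tested were not called against Bulk. FKBP5, a classical glucocorticoid target named here after its values were seen, was at -0.85, -0.83 and -0.86, and DUSP1 at 0.45, 0.75 and 0.45. ANGPTL4 had opposite signs, -0.48 in Claret and 0.54 in Violet. It was called for Claret against Violet, at -1.03 (-1.26 to -0.81), where 0.788% of all genes were called in either direction. The receptor gene NR3C1, also chosen after its values were seen, was at -0.21, -0.19 and -0.20. List medians were 0.19, 0.18 and 0.48, and those of all genes kept were -0.01, -0.01 and 0.00.

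Genes of the metal and oxidative stress response, several of them reported with MTF1 or with NRF2, were also mixed. All 9 were tested, 0 were called higher and 1 was called lower in each library. The shares of all genes kept were 11.2%, 11.9% and 11.3% higher and 6.67%, 7.6% and 7.01% lower in Claret, eGFP and Violet. PGF, placental growth factor, which MTF1 is known to act on, was read 1166 (Bulk), 553 (Claret), 488 (eGFP) and 534 (Violet) times. It was lower in all 3, at log2 ratios of -1.18 (-1.33 to -1.04), -1.26 (-1.42 to -1.11) and -1.13 (-1.28 to -0.98). TXNRD1, cytosolic thioredoxin reductase, was at 0.80, 0.86 and 0.61, and NQO1, a quinone reductase, at -0.51, -0.54 and -0.58, none called. HMOX1, heme oxygenase, named after its values were seen, was at 0.82, 0.69 and 0.56. The list medians were -0.07, -0.15 and -0.07.

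**Figure D5:**
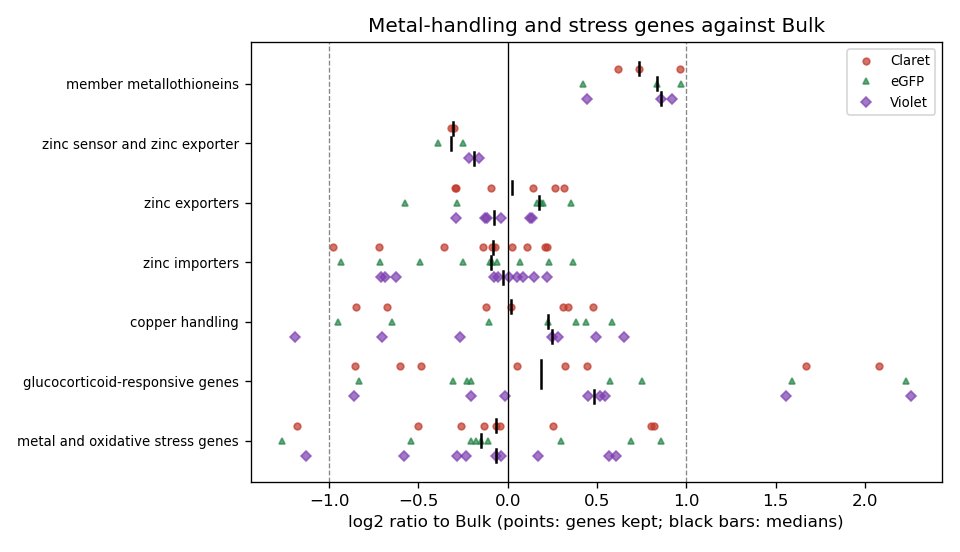
Log2 ratio to Bulk of each tested gene in 7 groups of metal-handling and stress genes, coloured by library, with black bars at the group medians and dashed lines at the 2-fold threshold. The metallothioneins lie to the right of 0 in all 3 libraries, and past the threshold lie KLF9 and TSC22D3 on the right and PGF and, in Violet, COX17 on the left.

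Genes with a pattern like that of MT2A were looked for across the table. Among 9705 other protein-coding genes with a mean of at least 10 CPM, the 5 whose 3 log2 ratios to Bulk lay nearest to those of MT2A by Euclidean distance were LTA4H, ZNF358, FIBCD1, C17orf51 and CCDC85B, at distances of 0.036 to 0.058. LTA4H, leukotriene A4 hydrolase, was read 2227 (Bulk), 4663 (Claret), 4293 (eGFP) and 4198 (Violet) times, at log2 ratios of 0.96, 0.94 and 0.91. The measure rests on 3 values that share 1 Bulk library.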

How the data were processed

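Per the labels' protocols, TRIzol-extracted RNA went into NEBNext Ultra libraries. The submitters' processing notes name HISAT2 2.0.5 and featureCounts 1.5.0-p3. Use of strand, handling of reads that match several genes and the genome build are not given in the sources used here. The deposited table holds whole-number read counts per gene, made by the authors with no normalization. Start and end of 58724 of the 58735 genes, and of all 8 studied, equal those of GENCODE 29 (GRCh38). The deposited FPKM values were computed by the authors from these counts and are used for levels per length and in 1 alternative, log2(FPKM + 1), which understates changes of low genes. Library totals implied by the FPKM were 96.9% (Bulk), 99.97% (Claret), 100.7% (eGFP) and 103.5% (Violet) of the summed counts. The FPKM are thus not scaled by summed counts alone.

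Genes with a mean of at least 1 CPM were kept (14585). Library sizes were scaled by TMM over all genes (edgeR 4.0.16, R 4.3.3), and log2 ratios used a prior count of 2. With 1 library per group, the quasi-likelihood fit of edgeR leaves 0 residual degrees of freedom, so the reads of 2 libraries were compared by a two-sided exact conditional binomial test (scipy 1.17.1), with Benjamini-Hochberg adjustment over all genes kept, in 6 pairs of libraries. The code was tested on simulated data. Intervals are 95% exact (Clopper-Pearson) and, like the floor of 3 reads, cover counting error only. Gene names outside the 8 follow a rule: list genes called against Bulk (at most 5 per list) and the 2 per list with the highest FPKM. Exceptions are stated. The members and lists were chosen with earlier results of these data known. Alternatives were library-size scaling, DESeq2 1.42.0 size factors, low-count filters, the fold threshold, the prior count, FPKM, a lowess correction for transcript GC content, the summed gene sets and groups from the treatment field.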

Additional observations from a re-analysis of the deposited data

How the results depend on the processing

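The 5 tested genes kept their direction against Bulk, and stayed uncalled, under summed-count scaling, DESeq2 size factors, log2(FPKM + 1), a prior count of 0.5 and a GC correction (15 of 15 ratios each). With no low-count filter, or a filter at 10 CPM, 0 of them were called in any pair of libraries. With groups from the treatment field 8 of 15 ratios changed sign. In Claret these were MT2A (-0.92), MT1X (-0.86), MT1E (-0.44), MTF1 (0.22) and SLC30A1 (0.16), in eGFP MT1X (-0.12) and in Violet MT1X (-0.0189) and MT1E (-0.0196). By construction that grouping takes the library titled Violet as the control and the one titled Bulk as Claret, so a Claret ratio of list genes is then their Violet ratio with its sign turned. The summed metallothionein ratio was then -0.86, 0.0525 and 0.042 in Claret, eGFP and Violet. Under the title groups, the summed ratio was 0.63, 0.49 and 0.50 without MT2A. Scaled by summed counts, the title-group ratio over all 6 metallothioneins was 0.92 in Violet, against 0.86 with TMM. With the call at 1.5-fold, 3, 2 and 2 genes were called higher against Bulk. Counts of list genes called in at least 1 comparison with Bulk did not change under the 2 scalings, and under the treatment field the glucocorticoid list had 3 against 2. No paired analysis was possible because each group holds 1 library. Depth limits MT1F, MT1G and MT1M and the pseudogenes.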
